A study of Mus musculus with 48 samples.

Results

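The genes described here are the Toll-like receptors Tlr1, Tlr2, Tlr3, Tlr4, Tlr6, Tlr7, Tlr9 and Tlr13, the co-receptor Cd14 and the adaptor Myd88. They were taken by gene name from the non-control probes of a mouse expression microarray, and are 10 of 24105 gene names, with 13 of 55681 probes. Each of the 48 arrays held RNA from cells of male Swiss mouse pups of 1 of 8 groups, with 6 arrays per group. Pups received PBS (control) or interleukin 1 beta (IL1B, 10 ng/g) into the peritoneum from postnatal day (P) 1 to P5 and were killed at P5, which the labels place 2 h after the last injection, or at P10, 5 days after it. At each age O4+ cells (cells of the oligodendrocyte lineage) and then CD11B+ cells (microglia) were drawn from the dissociated brains with magnetic beads, and the study states that both cell types came from the same animals. The 8 groups are therefore P5 PBS, P5 IL1B, P10 PBS and P10 IL1B, each in O4+ and in CD11B+ cells. The pups carried no engineered allele according to the labels, and the study models the brain inflammation of preterm infants with systemic IL1B. The study's methods state that cells of several brains were pooled for a sample and give a longer interval after the last injection than the labels do.

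Toll-like receptors are membrane proteins that recognise conserved microbial molecules and some products of damaged cells. Tlr1, Tlr2, Tlr4 and Tlr6 act at the cell surface, where Tlr2 pairs with Tlr1 or Tlr6 to bind lipoproteins and Tlr4 binds lipopolysaccharide, which Cd14 hands over to it. Tlr3, Tlr7, Tlr9 and Tlr13 act in endosomes and bind nucleic acids: double-stranded RNA (Tlr3), single-stranded RNA (Tlr7), unmethylated CpG DNA (Tlr9) and bacterial ribosomal RNA (Tlr13). Apart from Tlr3 these receptors signal through Myd88, an adaptor that the IL1 receptor also uses. In the brain microglia are the cells best known for carrying them.

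Of the probes on an array, 52.9% to 65.4% were well above the local background, and no non-control spot was saturated. Any pair of arrays of the same group correlated at 0.958 or above. The O4+ arrays carried clear signal for oligodendrocyte lineage markers. Their mean over the list of 10 genes was 14.37 ± 0.04 (SD, n = 6) on the log2 scale at P5 under PBS. In CD11B+ cells it was 9.97 ± 0.21 after separate normalization, so these values are not on a common scale. All 15 microglia markers were also above background on every P5 PBS O4+ array. The 48 arrays lay on 9 slides scanned on 5 days. P5 and P10 arrays shared neither slide nor scan day, so age cannot be told apart from them. Values below are log2 intensities after quantile normalization, done within the 24 arrays of O4+ or of CD11B+ cells, and on all 48 together wherever O4+ and CD11B+ cells are set side by side. A gene was called when its adjusted p from limma was under 0.05 and its group medians differed by more than 1.5-fold. A fold is the ratio of the medians, whereas a log2 change subtracts one mean from the other. Where a gene had several probes, that of the highest mean signal was used, and levels of different probes are not compared.

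Signal for most of these genes was read by 1 probe each. The mm9 positions of the probes, taken from the array files, were chr3:83640344-83640403 for Tlr2 and chr9:119245322-119245381 for Myd88, both on the minus strand and both spotted 10 times. Tlr7 and Tlr4 had further probes. The second Tlr7 probe, at chrX:163743146-163743205, matched the same transcript record as the one used, at chrX:163742863-163742922. The remaining Tlr7 probe was above background on no O4+ array. The second Tlr4 probe, at chr4:66590077-66590136, was above background on no array of either cell type and carries no information on Tlr4.

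Because several of the genes moved together, the bases ahead of their annotated starts were searched for short motifs on both strands. A RefSeq window (GRCm38.p6, 250 bases before to 50 after the start) was at hand for 7 of the 10 genes, with 9 windows. The NF-kappaB motif was searched as GGGNNNNNCC, the interferon response motif (ISRE) as GAAANNGAAA and the PU.1 motif as GAGGAA. Shown are the 250 bases before the start, 5′ to 3′ on the gene's strand, for some of these windows. They belong to Tlr2, Tlr6, Myd88 and Tlr13 and to Tlr9, which was not called in any IL1B comparison. The windows of Tlr1 and Tlr3 and the other Tlr6 window are not shown. Every window shown holds a match, whereas a Tlr1 window holds none. Capitals mark a match to any of the 3 motifs.
Tlr2, chr3:83841609-83841858, strand -: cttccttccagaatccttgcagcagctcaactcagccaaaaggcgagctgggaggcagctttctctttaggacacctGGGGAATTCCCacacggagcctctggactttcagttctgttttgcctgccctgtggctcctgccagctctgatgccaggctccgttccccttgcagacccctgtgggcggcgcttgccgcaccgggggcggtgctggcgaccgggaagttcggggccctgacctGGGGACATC
Tlr6, chr5:64959167-64959416, strand -: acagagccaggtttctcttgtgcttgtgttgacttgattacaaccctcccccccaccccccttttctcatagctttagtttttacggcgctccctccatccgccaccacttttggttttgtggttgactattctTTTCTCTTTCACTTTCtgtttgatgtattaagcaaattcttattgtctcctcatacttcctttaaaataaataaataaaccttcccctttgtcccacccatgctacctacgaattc
Myd88, chr9:119340019-119340268, strand -: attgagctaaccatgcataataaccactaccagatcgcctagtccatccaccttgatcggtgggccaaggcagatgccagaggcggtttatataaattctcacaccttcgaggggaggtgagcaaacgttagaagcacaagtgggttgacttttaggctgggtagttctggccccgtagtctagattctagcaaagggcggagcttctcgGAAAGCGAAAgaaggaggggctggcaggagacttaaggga
Tlr13, chrX:106143025-106143274, strand +: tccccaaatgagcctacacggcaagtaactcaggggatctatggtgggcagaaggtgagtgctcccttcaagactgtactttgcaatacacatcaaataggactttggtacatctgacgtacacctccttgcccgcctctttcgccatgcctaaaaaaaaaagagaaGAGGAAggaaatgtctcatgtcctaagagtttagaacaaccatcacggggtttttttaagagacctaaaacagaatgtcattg
Tlr9, chr9:106222348-106222597, strand +: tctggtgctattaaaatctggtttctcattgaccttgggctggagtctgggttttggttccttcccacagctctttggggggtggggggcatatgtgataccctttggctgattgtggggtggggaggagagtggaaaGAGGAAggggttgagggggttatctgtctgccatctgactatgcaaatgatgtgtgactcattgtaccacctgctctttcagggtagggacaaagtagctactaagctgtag
In Tlr2 overlapping NF-kappaB matches lay at -173 to -163, and another group reached across the start, so that its last bases are not shown. In the Tlr6 window shown, both matches, at -116 to -107 and -110 to -101, and the Myd88 match at -40 to -31 were to the interferon motif. Those of Tlr13 at -83 to -78 and Tlr9 at -112 to -107 were to the PU.1 motif. Over the 7 genes, 3 held the NF-kappaB motif (Tlr2, Tlr3 and Tlr6), in 3 of the 9 windows, against 50.8% of all 32851 windows. The interferon motif was in 2 genes (Tlr6 and Myd88) and 2 of the 9 windows, against 3.44% of all windows. The PU.1 motif was in 3 genes (Tlr1, Tlr9 and Tlr13) and 3 of the 9 windows, against 28.3%. A match is a run of letters and not a measured site.

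Under PBS every one of the 10 genes had lower signal in O4+ than in CD11B+ cells, at both ages, and the groups overlapped in none. Of all probes 21.8% at P5 and 21.7% at P10 were without overlap downward, and 20.6% and 21.8% upward. At P5 the log2 difference ran from -4.24 for Cd14 to -0.74 for Tlr9, and at P10 from -5.67 for Cd14 to -0.94 for Tlr9. All 10 were called lower at each age by limma, where 21.8% of all probes were called lower and 19.8% higher at P5, and 20.2% lower and 22.2% higher at P10. The median difference of the genes was -3.4 at P5 and -4.53 at P10, beside -0.05 and 0 over all probes. In these bulk samples fewer cells of a type and less RNA per cell cannot be told apart.

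Under 75th percentile scaling in place of quantile normalization the P5 all-probe median moved from -0.05 to -0.34, and all 10 calls were kept. Cd14 spanned the widest range. Its log2 signal on the common scale was 14.32, 14.5 and 14.76 (lowest, median and highest of 6) in P5 PBS CD11B+ cells and 9.81, 10.21 and 10.89 in P5 PBS O4+ cells, a 19.5-fold lower median in the latter (adjusted p 2.44e-09, limma). At P10 the corresponding values were 13.76, 13.94 and 14.39 against 7.84, 8.42 and 8.62. Every CD11B+ array thus exceeded every O4+ array at the same age.

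Among the other cell surface receptors, Tlr2 read 14.14, 14.3 and 14.38 in P5 PBS CD11B+ cells and 10.26, 10.8 and 11.03 in P5 PBS O4+ cells. Its difference was -3.56 ± 0.14 (SE) at P5 and -5.31 ± 0.09 at P10. Tlr4 differed by -3.81 ± 0.1 at P5 and -5.11 ± 0.12 at P10, Tlr6 by -3.46 ± 0.12 and -4.75 ± 0.11, and Tlr1 by -2.89 ± 0.06 and -3.64 ± 0.07. For all 4 receptors the gap between the cell types was wider at P10 than at P5 in these estimates, and that widening was not tested.

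The endosomal receptors divided. Tlr7 differed by -3.53 ± 0.14 at P5 and -4.49 ± 0.1 at P10, and Tlr13 by -3.34 ± 0.1 and -4.55 ± 0.16. Tlr3 differed by -2.25 ± 0.19 and -4.5 ± 0.35, but its probe was above background on 4 of 6 P5 PBS O4+ arrays and on 1 of 6 at P10. Tlr9 was the exception in size. It read 10.59, 11.12 and 11.15 in P5 PBS CD11B+ cells and 10.2, 10.28 and 10.43 in P5 PBS O4+ cells, a difference of -0.74 ± 0.1 (adjusted p 2.56e-05, limma). Myd88, the shared adaptor, differed by -3.09 ± 0.07 at P5 and -3.45 ± 0.08 at P10. On the 1 slide that held both cell types under PBS at P5 the differences ran from -4.38 for Cd14 to -0.91 for Tlr9. At P10 the cell types shared no slide, so cell type and slide cannot be told apart there.

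**Figure D1:**
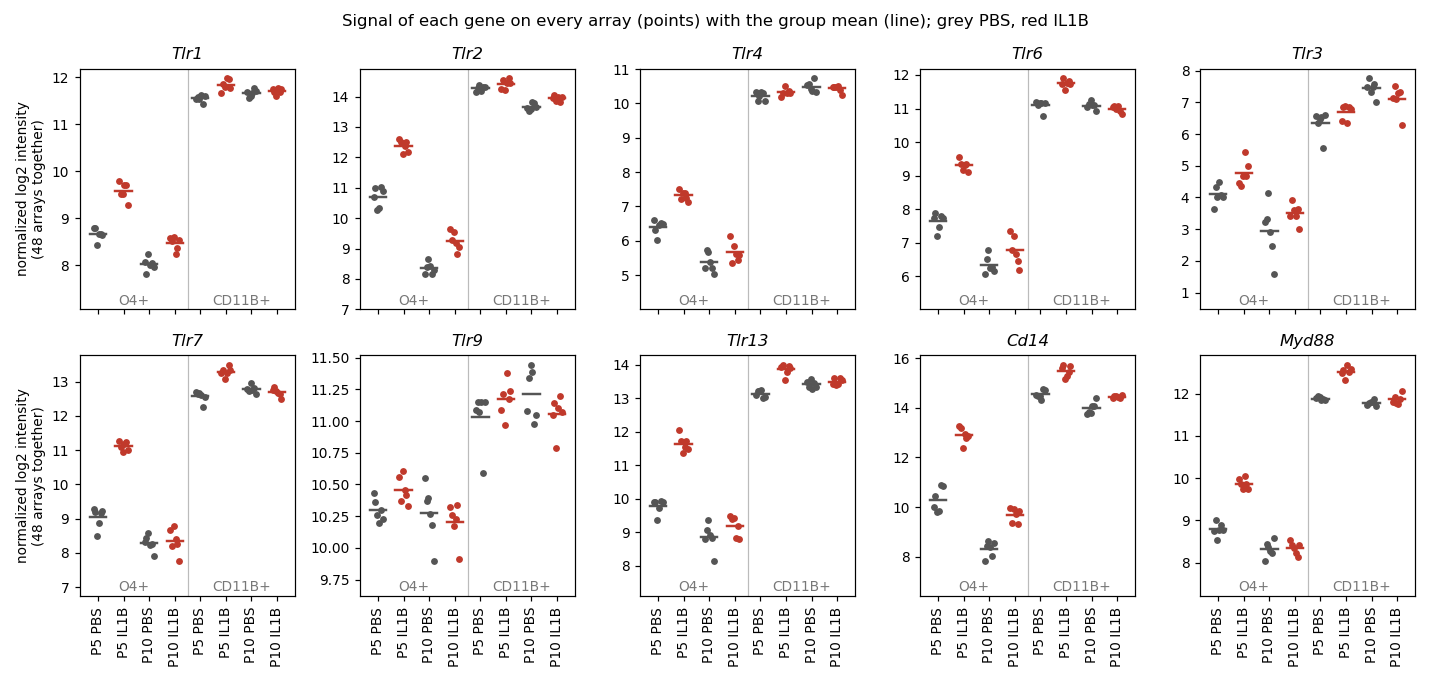
Normalized log2 intensity (vertical axis, 48 arrays normalized together) of each of the 10 genes on every array, by age and treatment, with O4+ groups on the left and CD11B+ groups on the right of each panel; grey points are PBS arrays, red points IL1B arrays and lines group means of 6. In all panels but that of Tlr9 the 4 CD11B+ groups lie above the 4 O4+ groups with no overlap, and the P5 IL1B O4+ arrays are the highest O4+ group.

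Ranking all 8 groups by mean gave a like order in 9 of the 10 genes. Each of the 4 CD11B+ groups stood above the P5 IL1B O4+ group, with no overlap between the lowest CD11B+ group and that group. Below it, P5 IL1B O4+ cells were clear of the next O4+ group for all these genes but Tlr3. For Cd14 the group means ran from 15.48 ± 0.22 (SD, n = 6) in P5 IL1B CD11B+ cells, through 14.54 ± 0.16 in P5 PBS CD11B+ cells and 13.98 ± 0.24 in P10 PBS CD11B+ cells, to 12.9 ± 0.32 in P5 IL1B O4+ cells and 8.31 ± 0.31 in P10 PBS O4+ cells. In the Tlr9 order each group overlapped with the next, from 11.21 ± 0.2 in P10 PBS CD11B+ cells to 10.21 ± 0.16 in P10 IL1B O4+ cells.

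Most microglia markers were lower in O4+ cells too. Over the 15 markers the median O4+ minus CD11B+ difference was -3.01 at P5 and -4.59 at P10, and the lowest was -3.28 and -4.85. By the probe used for each gene, Cd14, Tlr4, Tlr2, Tlr7, Tlr6 and Tlr13 lay below the lowest marker at P5, and Cd14, Tlr2 and Tlr4 at P10. The probes used for Itgam, which encodes CD11B, and Siglech went the other way, at 2 and 0.39 at P5 and 2.16 and 0.3 at P10, although the other probes of both genes were lower in O4+ cells, by 1.91 to 3.62 on the log2 scale at P5. At P5 an Itgam probe that was not used, at -3.62, lay below Tlr2, Tlr7, Tlr6 and Tlr13. Across the 24 O4+ arrays the mean of the microglia markers correlated with 8 of the 10 genes at r of 0.95 to 0.99, with Tlr3 at 0.81 and with Tlr9 at 0.54. The arrays share treatment, age and slide, so this is a description. In CD11B+ cells the same correlations ran from -0.93 for Tlr2 to 0.7 for Tlr3. What part microglial RNA has in the O4+ signal was not tested.

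**Figure D2:**
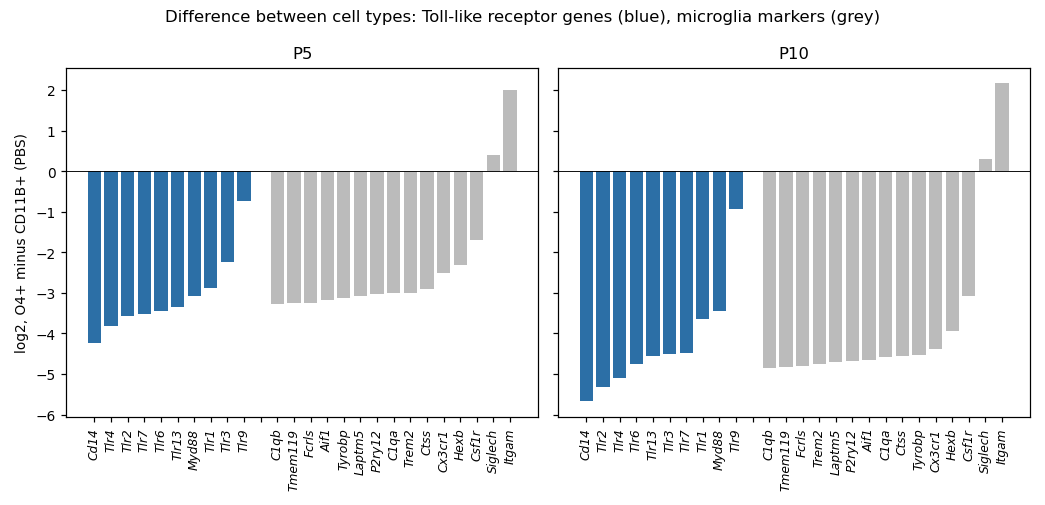
Bars give the log2 difference, O4+ minus CD11B+ cells under PBS, at P5 (left) and P10 (right), for the 10 genes in blue and the 15 microglia markers in grey. The blue bars all lie below 0, from -4.24 to -0.74 at P5 and from -5.67 to -0.94 at P10, and among the grey bars only the probes used for Itgam and Siglech lie above 0.

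Most of these genes were higher in O4+ cells of IL1B pups at P5. Cd14 rose most, 5.89-fold, followed by the endosomal receptors Tlr7 (3.53-fold) and Tlr13 (3.08-fold) and the surface receptors Tlr2 (2.96-fold) and Tlr6 (2.94-fold). Myd88, Tlr1, Tlr4 and Tlr3 rose between 1.57- and 2.03-fold. Tlr9 was not called. In all, 9 of the 10 genes were called higher and 0 lower, in 8 without overlap between the treatments. Of all probes 3.44% were called higher and 1.49% lower, and 4.64% had IL1B arrays all above the PBS arrays. The median change of the genes was 1.31, against -0.04 over all probes.

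Cd14 read 9.98, 10.35 and 10.98 (lowest, median and highest of 6) under PBS and 12.39, 12.91 and 13.23 under IL1B, a log2 change of 2.46 ± 0.21 (SE, adjusted p 2e-05, limma). The lowest IL1B array stood well above the highest PBS array. Tlr2 read 10.39, 10.9 and 11.12 under PBS and 12.14, 12.46 and 12.61 under IL1B, a change of 1.59 ± 0.14 (adjusted p 2.69e-05). For Tlr6, the partner of Tlr2, the values were 7.46, 7.98 and 8.12 against 9.32, 9.53 and 9.74, a change of 1.62 ± 0.11 (adjusted p 4.99e-06). Neither pair of groups overlapped. Tlr1, the other partner of Tlr2, changed by 0.88 ± 0.09 (adjusted p 4.98e-05) and Tlr4 by 0.91 ± 0.1 (adjusted p 0.000109), again without overlap. The Tlr4 call ended with the normexp background correction, under which the change was 0.58 and the fold was below the threshold.

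The RNA receptors of endosomes followed the same course. Tlr7 read 8.72, 9.38 and 9.49 under PBS and 11.03, 11.2 and 11.33 under IL1B, a change of 1.94 ± 0.12 (adjusted p 3.04e-06, limma). Its second probe gave 1.98 ± 0.16. Tlr13 read 9.57, 10.05 and 10.09 against 11.42, 11.68 and 12.09, a change of 1.74 ± 0.12 (adjusted p 5.25e-06). In both genes the lowest IL1B array stood well above the highest PBS array. Tlr3 read 3.87, 4.28 and 4.72 against 4.59, 4.93 and 5.71, near the floor of the array and with overlap, for a change of 0.69 ± 0.19 (adjusted p 0.0294). The Tlr3 call was lost with slide (0.32, adjusted p 0.544) or scan day (0.63, adjusted p 0.108) as a block, with normexp (0.2), with all groups in 1 fit (adjusted p 0.166) and, at 0.6 to 0.69, on leaving out P5 PBS replicate 1, 3, 5 or 6 or P5 IL1B replicate 6. The DNA receptor Tlr9 read 10.34, 10.41 and 10.55 against 10.46, 10.56 and 10.72, a change of 0.15 with a 95% interval of 0.03 to 0.27 (adjusted p 0.0791). Myd88 read 8.76, 9 and 9.23 against 9.91, 10.02 and 10.2, a change of 1.02 ± 0.08 (adjusted p 9.89e-06) with no overlap.

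Only 2 IL1B arrays shared a slide with PBS arrays of P5 O4+ cells, 1 on each of 2 slides. Within these slides Cd14 changed by 2.74 and 2.77, Tlr2 by 1.65 and 1.91, Tlr7 by 1.83 and 2.26, Tlr13 by 1.74 and 2.27 and Myd88 by 0.94 and 1.26. These values were close to those over all arrays. Tlr9 changed by 0.05 and 0.3.

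**Figure D3:**
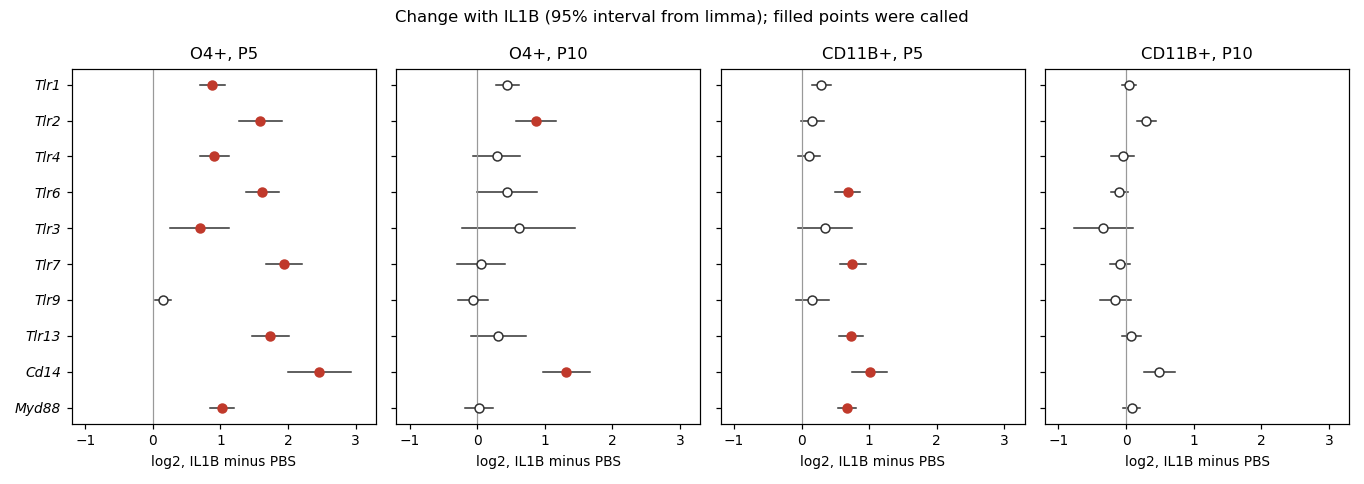
Log2 change with IL1B (horizontal axis, IL1B minus PBS) of each gene in O4+ cells at P5 and P10 and in CD11B+ cells at P5 and P10, with 95% intervals from limma over 6 against 6 arrays; filled points were called. Filled points number 9 in O4+ cells at P5, 2 at P10, 5 in CD11B+ cells at P5 and 0 at P10.

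Markers of other cells moved in the same samples. The mean of the 15 microglia markers rose from 13.69 ± 0.21 (13.32 to 13.89) to 14.7 ± 0.12 (14.5 to 14.89) with IL1B in O4+ cells at P5, a change of 1.01 (exact permutation test, adjusted p 0.00672 over 28 tests), and 11 of the 15 were called higher. The mean of 10 neutrophil and monocyte markers rose from 4.84 ± 0.32 (4.5 to 5.24) to 8.17 ± 1.13 (6.55 to 9.51), by 3.33 (exact permutation, adjusted p 0.00672), with 9 of the 10 called higher. Under PBS, 3 of these 10, the neutrophil genes Retnlg and Ngp and the monocyte receptor Ccr2, were above background on no array. Endothelial markers fell by 0.79 (exact permutation, adjusted p 0.011) and oligodendrocyte markers fell by 0.24 (exact permutation, adjusted p 0.00672). The part of these cells in the change of the receptor genes was not tested.

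Set against the microglia marker mean of the same array, the genes divided. Cd14 still exceeded that mean's change, by 1.45 ± 0.19 (SE), Tlr7 by 0.93 ± 0.09, Tlr13 by 0.73 ± 0.1, Tlr6 by 0.61 ± 0.08 and Tlr2 by 0.58 ± 0.11. In each of these 5 genes all 6 IL1B arrays stayed above all PBS arrays after the subtraction. Myd88 moved with the mean, at 0.01 ± 0.09 (adjusted p 0.883, limma), and Tlr4 (-0.1), Tlr1 (-0.13) and Tlr3 (-0.32) did not pass the test. Relative to the mean Tlr9 fell by 0.86 on the log2 scale (adjusted p 3.65e-06). At the fold threshold 4 genes were called higher after the subtraction, Cd14, Tlr6, Tlr7 and Tlr13, and Tlr9 was called lower. The subtraction lowers every probe by the change of the mean, 1.01, so a gene with little change of its own falls by construction. The measured change of Tlr9 was 0.15, and its call says nothing particular to Tlr9. Shares of all probes called or without overlap after the subtraction are not given here. With a mean that left out Itgam and Siglech, an alternative chosen after seeing the data, Tlr6 lost its call (0.44), and Tlr1 (-0.3, adjusted p 0.0125, limma) and Tlr4 (-0.27, adjusted p 0.0212) passed the p threshold downward.

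**Figure D4:**
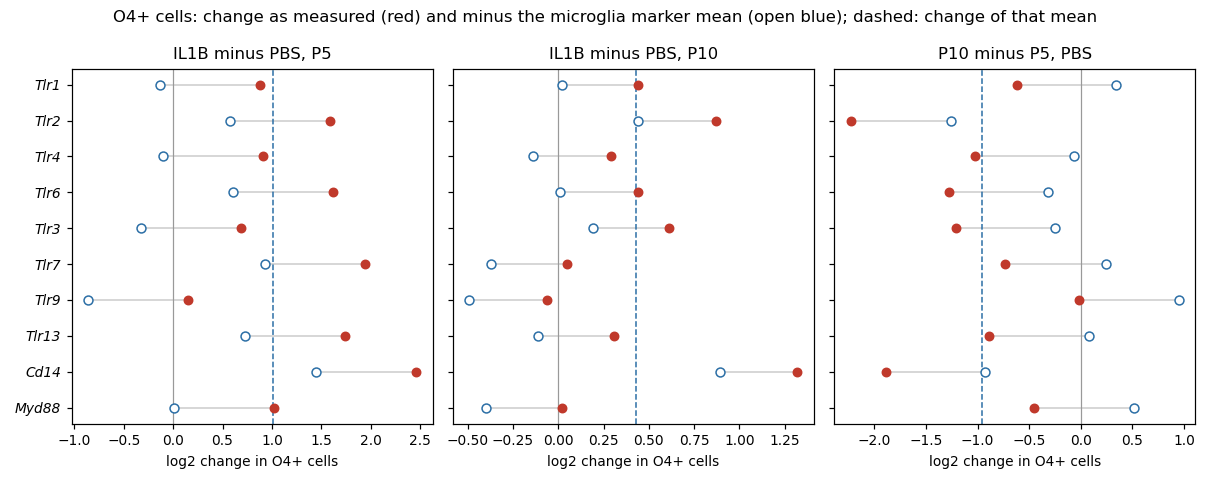
Log2 change in O4+ cells (horizontal axis) as measured in red and after subtracting the microglia marker mean of each array in open blue, for IL1B minus PBS at P5 and at P10 and for P10 minus P5 under PBS. Dashed lines mark the change of the marker mean itself, 1.01, 0.43 and -0.96; the measured points of Cd14, Tlr7, Tlr13, Tlr6 and Tlr2 lie to the right of the line at P5.

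By P10, 5 days after the last injection, 2 genes were still higher with IL1B in O4+ cells, Cd14 (2.46-fold) and Tlr2 (1.81-fold). Of all probes 2.49% were called higher and 1.41% lower, and 2.9% were without overlap upward. Scaling to the 75th percentile in place of quantile normalization moved the median of all probes to -0.19 and turned the higher share of called probes from 63.8% to 42.7%, while both genes kept their call. Over the 10 genes the median change was 0.37, against -0.02 over all probes.

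Cd14 read 8.09, 8.66 and 8.85 under PBS and 9.51, 9.95 and 10.12 under IL1B, a change of 1.32 ± 0.16 (SE, adjusted p 0.00143, limma). Tlr2 read 8.42, 8.57 and 8.88 against 9.02, 9.44 and 9.82, a change of 0.87 ± 0.14 (adjusted p 0.00406). In both genes the treatments did not overlap. Tlr1 changed by 0.44 ± 0.08 (adjusted p 0.00708) at 1.41-fold, under the fold threshold. The other changes were 0.61 for Tlr3, measured above background on 1 of 6 arrays of each group, 0.44 for Tlr6, 0.31 for Tlr13, 0.29 for Tlr4, 0.05 for Tlr7, 0.02 for Myd88 and -0.06 for Tlr9, with adjusted p-values of 0.213 to 0.918. The second Tlr7 probe gave 0.57 ± 0.19 (adjusted p 0.0851). Within the 2 slides that held both treatments Cd14 changed by 1.34 and 1.23 and Tlr2 by 1.05 and 0.74. For Tlr7 and Myd88 the 95% intervals were -0.3 to 0.41 and -0.18 to 0.23.

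At this age the microglia marker mean rose by 0.43 (exact permutation, adjusted p 0.0432), a call lost under 75th percentile scaling (0.28). Neutrophil and monocyte markers rose by 1.45 and astrocyte markers by 0.53 (exact permutation, adjusted p 0.00672 each). Relative to the microglia mean Cd14 changed by 0.89 ± 0.16 and Tlr2 by 0.44 ± 0.14, with all 6 IL1B arrays above all PBS arrays in both. Only Cd14 then passed the fold threshold. With a mean that left out Itgam and Siglech, chosen after seeing the data, Tlr2 changed by 0.34 (adjusted p 0.0802, limma) and no longer passed. The part of these cells was not tested.

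In CD11B+ cells at P5, 5 of the 10 genes were higher with IL1B: Cd14 (2.13-fold), Tlr13 (1.72-fold), Tlr7 (1.63-fold), Myd88 (1.61-fold) and Tlr6 (1.53-fold). None was called lower. Of all probes 4.06% were called higher and 5.25% lower, and 5.87% were without overlap upward, as were 6 of the 10 genes. The median change was 0.51, beside -0.01 over all probes. Under 75th percentile scaling the all-probe median moved to 0.11 and the higher share of called probes from 43.6% to 54.5%, while the same 5 genes were called.

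Cd14 read 14.37, 14.54 and 14.82 under PBS and 15.24, 15.64 and 15.86 under IL1B, a change of 1.01 ± 0.12 (SE, adjusted p 9.29e-05, limma). Tlr7 read 12.23, 12.61 and 12.7 against 13.11, 13.32 and 13.49, a change of 0.75 ± 0.09 (adjusted p 9.84e-05), and its second probe gave 0.71 ± 0.07. Averaged over all 3 probes the change was 0.48 and the call was lost. Tlr13 read 12.99, 13.16 and 13.27 against 13.56, 13.95 and 14, a change of 0.73 ± 0.08 (adjusted p 7.95e-05). Each of these genes separated the treatments completely. Tlr6 changed by 0.69 ± 0.08 (adjusted p 0.000123), just past the fold threshold, and Myd88 by 0.67 ± 0.06 (adjusted p 9.97e-06) from 11.83 ± 0.04 (SD, n = 6) to 12.5 ± 0.12.

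The other genes were not called. Tlr2 read 14.18, 14.34 and 14.42 against 14.26, 14.5 and 14.65, with overlap, a change of 0.16 with a 95% interval of -0.01 to 0.33 (adjusted p 0.196, limma). Tlr4 changed by 0.11 (interval -0.05 to 0.27), Tlr9 by 0.15 (-0.09 to 0.4) and Tlr3 by 0.35 (-0.05 to 0.75). Tlr1 changed by 0.29 ± 0.06 (adjusted p 0.00595) without overlap, but at 1.21-fold. On the 1 slide that held both treatments, with 1 PBS array and 4 IL1B arrays, Cd14 changed by 0.89, Tlr13 by 0.9, Tlr7 by 0.85, Myd88 by 0.76 and Tlr6 by 0.65.

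Neutrophil and monocyte markers also rose in these samples, by 3.03, from 10.47 ± 0.33 (10.03 to 10.94) to 13.5 ± 0.24 (13.08 to 13.79), with all 10 called higher. The microglia mean fell by 0.1 (exact permutation, adjusted p 0.0327), a direction that 75th percentile scaling turned to 0.11, and among the microglia markers P2ry12 and Fcrls were called lower. Endothelial markers fell by 0.87 (exact permutation, adjusted p 0.00672). The part of neutrophils or monocytes in the change of the receptor genes was not tested.

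At P10 none of the 10 genes was called in CD11B+ cells, where 1.09% of all probes were called higher and 1.08% lower. At an unadjusted p under 0.05 there were 2. Cd14 read 13.78, 13.96 and 14.44 under PBS and 14.43, 14.5 and 14.58 under IL1B, a change of 0.49 ± 0.1 (adjusted p 0.0242, limma) at 1.45-fold. Tlr2 read 13.53, 13.66 and 13.85 against 13.85, 14 and 14.08, a change of 0.3 ± 0.06 (adjusted p 0.0252) at 1.27-fold. Both passed the p threshold and missed the fold threshold, and Cd14 was called on leaving out PBS replicate 4, 5 or 6 (0.51 to 0.58) and under 75th percentile scaling (0.55). On the 1 slide that held both treatments Cd14 changed by 0.22 and Tlr2 by 0.23. The remaining changes ran from -0.34 for Tlr3 to 0.09 for Myd88, with adjusted p-values of 0.359 or above. The median change was 0, as over all probes. Neutrophil and monocyte markers differed by 0.74 (exact permutation, adjusted p 0.0947), and border-associated macrophage markers rose by 0.14 (exact permutation, adjusted p 0.00672).

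The responses were then compared directly by interaction terms. In O4+ cells the IL1B response was smaller at P10 than at P5 for 8 of the 10 genes. Of all probes 13.1% passed, in either direction. The difference was -1.89 ± 0.21 (SE) for Tlr7 (adjusted p 4.08e-06, limma), -1.43 ± 0.23 for Tlr13, -1.18 ± 0.24 for Tlr6, -1.14 ± 0.27 for Cd14 and -1 ± 0.12 for Myd88. Tlr2 (-0.73), Tlr4 (-0.62) and Tlr1 (-0.44) also passed, though each lost the call with slide as a block and with the deposited table. The Tlr4 difference also did (-0.54 to -0.61) on leaving out P5 PBS replicate 2 or 3, P5 IL1B replicate 1, 3 or 4, P10 PBS replicate 2 or 3, or P10 IL1B replicate 2, 4 or 5. Tlr9 (-0.22, interval -0.45 to 0.02) and Tlr3 (-0.08, interval -0.99 to 0.83) did not pass. In CD11B+ cells 6 genes had a smaller response at P10, where 16.8% of all probes passed in either direction. They were Tlr7 (-0.84), Tlr6 (-0.78), Tlr13 (-0.65), Myd88 (-0.58), Cd14 (-0.51) and Tlr1 (-0.25). With slide as a block Cd14 and Tlr1 were lost, with the deposited table Cd14 (-0.37), Tlr1 (-0.01), Tlr13 (-0.42) and Myd88 (-0.33), and under 75th percentile scaling Tlr1 (-0.24). Cd14 was also lost (-0.46 to -0.47) without P5 PBS replicate 4 or P5 IL1B replicate 2 or 6, and Tlr1 (-0.22 to -0.25) without P5 PBS replicate 5, P5 IL1B replicate 2, 4 or 5, P10 PBS replicate 1 or 5, or P10 IL1B replicate 3 or 5. Tlr2 had a difference of 0.14 there, with an interval of -0.07 to 0.35.

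Between cell types the log2 response at P5 was larger in O4+ than in CD11B+ cells for 8 genes, where 10.7% of all probes passed in either direction. Cd14 differed by 1.66 ± 0.26 (adjusted p 0.000106, limma), Tlr2 by 1.52 ± 0.17 (adjusted p 2.56e-06), Tlr7 by 1.36 ± 0.16, Tlr13 by 1.13 ± 0.15, Tlr6 by 1.02 ± 0.14, Tlr4 by 0.81 ± 0.12, Tlr1 by 0.64 ± 0.11 and Myd88 by 0.44 ± 0.1. The Myd88 difference was lost under 75th percentile scaling (0.28, adjusted p 0.137), with slide as a block (0.43, adjusted p 0.188) and with the deposited table (0.36, adjusted p 0.29). Tlr9 had nearly the same small response in both cell types, the difference being 0.02 with an interval of -0.23 to 0.27, and Tlr3 differed by 0.33 (-0.23 to 0.89). At P10 the response was larger in O4+ cells for Cd14 (0.9 ± 0.2), Tlr2 (0.61 ± 0.16) and Tlr1 (0.41 ± 0.1). There 7.56% of all probes passed in either direction. With the deposited table Tlr2 (0.47, adjusted p 0.0632) and Tlr1 (0.3, adjusted p 0.0805) were lost. Without P10 IL1B O4+ replicate 6 Tlr6 passed too (0.65). These differences are on the log2 scale, and the O4+ groups started from lower signal. With IL1B at P5 the microglia marker mean itself changed by 1.01 in O4+ cells and by -0.1 in CD11B+ cells. At P10 it changed by 0.43 and -0.09, each cell type being normalized apart. The part of microglial RNA in the differences between cell types was not tested.

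Between P5 and P10 under PBS the O4+ cells lost signal for most of the genes. Tlr2 fell 4.99-fold and Cd14 3.24-fold, Tlr6 and Tlr4 fell 2.75- and 2.26-fold, and Tlr13, Tlr7 and Tlr1 fell 1.54- to 1.96-fold. Tlr3 was also called lower, with P10 signal above background on 1 of 6 arrays. With 8 of the 10 called lower and 0 higher, 8.97% of all probes were called lower and 7.87% higher. Of all probes 11.4% were without overlap downward, as were 6 of the 10 genes. Under 75th percentile scaling the median of all probes moved from 0.02 to 0.21, and the 8 calls remained. The median change was -0.96.

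Tlr2 read 10.39, 10.9 and 11.12 at P5 and 8.42, 8.57 and 8.88 at P10, a change of -2.23 ± 0.14 (SE, adjusted p 3.59e-07, limma). Cd14 read 9.98, 10.35 and 10.98 against 8.09, 8.66 and 8.85, a change of -1.89 ± 0.21 (adjusted p 3.15e-05). Tlr6 changed by -1.28 ± 0.14, Tlr4 by -1.03 ± 0.14, Tlr13 by -0.89 ± 0.17 and Tlr1 by -0.62 ± 0.08, all without overlap. With normexp Tlr1 was under the fold threshold (-0.54). Tlr7 changed by -0.73 ± 0.14 with overlap, whereas its second probe gave -1.56 ± 0.2, so the probes disagreed on size by more than 1.5 times. Tlr3 changed by -1.21 ± 0.38 (adjusted p 0.0269), a size that is uncertain this near the background. It lost its call with normexp (-0.26), with slide as a random block (-1.44, adjusted p 0.0644) and without P5 PBS replicate 2 or 4 or P10 PBS replicate 5 (-1.12 to -1.16). Myd88 changed by -0.45 ± 0.1 (adjusted p 0.00325) at 1.35-fold lower, and Tlr9 by -0.02 with an interval of -0.21 to 0.18.

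The microglia marker mean in O4+ cells went from 13.69 to 12.73 over the same days, a change of -0.96. Relative to it Tlr2 still fell by 1.26 and Cd14 fell by 0.93, with all 6 P10 arrays below all P5 arrays in both, and Tlr6 was under the fold threshold at -0.32 ± 0.12. Tlr4 (-0.07), Tlr13 (0.08), Tlr7 (0.24) and Tlr3 (-0.25) did not pass the test. Relative to the mean Tlr9 was called higher, by 0.95 ± 0.15. Myd88 (0.52 ± 0.15, adjusted p 0.00461, limma) and Tlr1 (0.34, adjusted p 0.0332) passed the p threshold upward but not the fold threshold. Since the mean changed by -0.96, the subtraction raises every probe by the same amount. The measured changes were -0.02 for Tlr9, -0.45 for Myd88 and -0.62 for Tlr1, so these upward values follow from the subtraction and show no rise. The share of all probes called after it is not given here. The part of microglial RNA in the fall with age was not tested.

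In CD11B+ cells age moved fewer of the genes. Tlr3 rose 2-fold, from 5.29, 6.23 and 6.32 at P5 to 6.75, 7.24 and 7.52 at P10, a change of 1.11 ± 0.18 (adjusted p 0.00119, limma). Tlr2 fell 1.6-fold, from 14.18, 14.34 and 14.42 to 13.53, 13.66 and 13.85, a change of -0.63 ± 0.06 (adjusted p 5.59e-05). Neither gene's ages overlapped, nor did those of Tlr13, which was higher at P10. In all, 2 of the 10 genes were without overlap upward and 1 downward, beside 7.7% and 5.57% of all probes. Of all probes 4.65% were called higher and 3.62% lower. Cd14 changed by -0.59 ± 0.12 (adjusted p 0.00441) at 1.49-fold lower, just under the threshold, and was called without P5 PBS replicate 2, 3 or 4 or P10 PBS replicate 4, 5 or 6 (-0.6 to -0.67). Tlr13 (0.28), Tlr4 (0.29), Tlr7 (0.21), Tlr9 (0.19), Tlr1 (0.11), Tlr6 (-0.01) and Myd88 (-0.1) were not called. The median change of 0.15 compares with 0 over all probes.

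**Figure D5:**
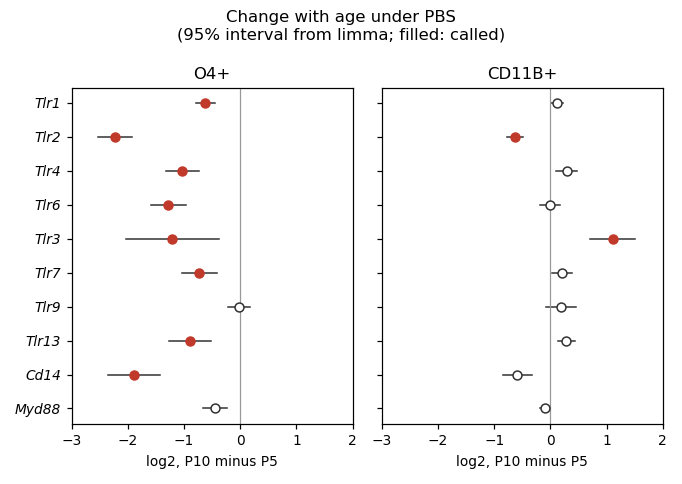
Log2 change with age under PBS (horizontal axis, P10 minus P5) of each gene in O4+ (left) and CD11B+ cells (right), with 95% intervals from limma over 6 against 6 arrays; filled points were called. In O4+ cells 8 points are filled, all below 0, and in CD11B+ cells Tlr3 is filled above 0 and Tlr2 below.

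A further 40 genes of the Toll-like receptor pathway were examined by role, and all had a probe. With IL1B in O4+ cells at P5, 11 were called higher and 1 lower, with a median change of 0.17, where 3.44% of all probes were called higher and 1.49% lower. Of the 8 that bind ligand or help fold and move receptors, 3 rose: Unc93b1, which escorts endosomal receptors out of the endoplasmic reticulum (3.01-fold, 1.65 ± 0.1 SE), Ly86, the partner of Cd180 (2.2-fold, 1.23 ± 0.13), and Ly96, the lipopolysaccharide-binding partner of Tlr4 (1.63-fold, 0.73 ± 0.08). Of 3 transcription factors, Irf5 (2.48-fold) and Irf7 (1.51-fold) rose. Of 5 adaptors, Ticam1, which serves Tlr3 and Tlr4, rose 1.56-fold, and Pik3ap1 rose from not well above background to a level at least 4.38-fold higher. Of 6 negative regulators, Irak3 (1.86-fold) and the deubiquitinase Tnfaip3 (1.85-fold) rose and Sigirr fell (1.91-fold lower). Among 13 kinases and ubiquitin ligases only Ikbke passed, at least 2.63-fold higher, and among 5 other receptors only Tlr12, 1.5-fold.

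At P10 in O4+ cells 2 of the 40 were called, both higher, Tnfaip3 (2.29-fold) and Ly86 (1.67-fold), against 2.49% of all probes. In CD11B+ cells at P5, 5 rose and 1 fell, with a median change of 0.06, against 4.06% and 5.25% of all probes. Ikbke, an IkappaB kinase relative, rose 4.38-fold, Irak3, which dampens Myd88 signalling, 3.59-fold, Irf7 2.76-fold, Socs1 1.72-fold and Pik3ap1 1.69-fold, while Cd180 fell (1.97-fold lower). At P10 in CD11B+ cells Ikbke (2.39-fold), Irak3 (2.02-fold) and Tlr8 (1.91-fold, above background on 1 of 6 PBS arrays) were higher and 0 lower, against 1.09% and 1.08% of all probes. With age under PBS, 9 of the 40 fell and 3 rose in O4+ cells, against 8.97% and 7.87% of all probes, and 4 fell and 1 rose in CD11B+ cells, against 3.62% and 4.65%. The genes that rose with age took no larger a share of the 40 than of all probes. Between cell types 27 of the 40 were lower in O4+ cells at P5 and 28 at P10, with 3 and 2 higher, where 21.8% and 20.2% of all probes were lower and 19.8% and 22.2% higher. The median differences were -1.18 and -1.4, beside -3.4 and -4.53 for the 10 genes described above.

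Genes with the most similar course over the 24 arrays of a cell type were listed by Pearson's r among the probes with a gene symbol above background on all of them, 21034 probes in O4+ and 19491 in CD11B+ cells. In O4+ cells Cd14 was closest to Casp4 (0.992), Igsf6 (0.991) and Cebpa (0.988), Tlr2 to Lrrc33 (0.995), Plek (0.994) and Tgif1 (0.994), Tlr6 to P2ry6 (0.996), Inpp5d (0.995) and Hmha1 (0.995), and Tlr4 to Adora3, Cyth4 and Vav1 (0.987 to 0.988). Tlr1 was closest to Trpv2, Ncf4 and Aif1 (0.983 to 0.986), Tlr7 to Mcl1, Cryba4 and Ctsa (0.985 to 0.986), Tlr13 to P2ry6, Cryba4 and Mcl1 (0.988 to 0.989) and Myd88 to Csrnp1, Hif3a and Rbm47 (0.985 to 0.99). For Tlr3 (Lifr, 0.914) and Tlr9 (Dock3, 0.883) the highest values were lower. These arrays differ in treatment, age and microglia marker signal, which all such values share.

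In CD11B+ cells the lists differed. Cd14 was closest to Srgn (0.976), Lilrb4 and Igsf6 (0.972 each), Igsf6 being the 1 gene named for the same member in both cell types. Myd88 was closest to Zmynd15 (0.98), Runx1 and Klf13 (0.979 each), Tlr6 to Klraq1 (0.963), Fkbp5 (0.962) and Nos2 (0.96), Tlr13 to N4bp1 (0.954), Tlr2 to Dnajc12 (0.954), Tlr3 to Tgfbr1 (0.946) and Tlr9 to Acad10 (0.919). For Tlr1 and Tlr4 no gene reached 0.87, the highest being Tnni3 (0.862) for Tlr1.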

How the data were processed

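RNA of 48 samples was hybridised to 1-colour Agilent mouse arrays, and the authors extracted spot intensities with Agilent Feature Extraction. The deposited scanner files hold background-subtracted intensity values per spot, not normalized between arrays, with quality flags for each spot (saturated, non-uniform, above background). The deposited value table holds ratios of signal to the array median by the authors. Their log2 matched the log2 intensity over the array median within 1.86e-05. The study's methods name quantile normalization and equal-variance tests with Benjamini-Hochberg adjustment. Columns of 0 samples were left unmapped.

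Here quantile normalization of the log2 intensity used the 24 O4+ or the 24 CD11B+ arrays, and all 48 when O4+ was set against CD11B+. Control spots and 278 non-uniform spots were left out, and spots of a probe were averaged. Each comparison of 6 with 6 arrays was fitted in limma 3.58.1 (R 4.3.3) without covariates, with Benjamini-Hochberg adjustment over 55681 probes. A call needed an adjusted p under 0.05 and group medians more than 1.5-fold apart. Interaction terms needed the adjusted p alone. For values relative to the microglia markers, the mean of the 15 markers was subtracted from every probe of an array before the same fit. Marker list means were compared by exact two-sided permutation tests over 924 splits, whose smallest p is 0.00216, adjusted over 28 tests. Precision is limited by how many arrays there were. Since brains were pooled for a sample, p-values measure the spread between these samples.

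The members, the pathway list, the marker lists and the tests were chosen with earlier results of these data known. The text names all 10 members, of each pathway role up to 4 genes called with IL1B, and for each member genes from the 3 of highest correlation, except that the genes closest to Tlr7 in CD11B+ cells are not reported here. Fitting was tested on simulated data. Alternatives were 75th percentile scaling, normexp, the deposited table, joint or separate normalization, a filter on dim probes, the methods' test, no fold threshold, 1 fit of all groups, slide, scan day and replicate blocks, the mean over probes, subtraction of marker means and leaving out each array.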

Additional observations from a re-analysis of the deposited data

Results flagged for a closer look

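Among 80 groups of 6 arrays (10 genes in 8 groups), 5 had an end value far from the other 5 arrays by Dixon's test, where chance gives about 1 in 20. In P5 PBS CD11B+ cells 3 of these were replicate 5, the lowest array for Tlr9 (10.48), Tlr6 (10.69) and Tlr3 (5.29, log2). The others were replicate 6 of P10 IL1B CD11B+ cells for Tlr3 (6.02) and replicate 3 of P5 PBS O4+ cells for Tlr13 (9.57).

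The remaining results stand out because the IL1B response differed between ages or cell types by limma's interaction term. The response at P10 minus that at P5 in O4+ cells was -1.89 for Tlr7, -1.43 for Tlr13, -1.18 for Tlr6, -1.14 for Cd14, -1 for Myd88, -0.73 for Tlr2, -0.62 for Tlr4 and -0.44 for Tlr1. In CD11B+ cells it was -0.84 for Tlr7, -0.78 for Tlr6, -0.65 for Tlr13, -0.58 for Myd88, -0.51 for Cd14 and -0.25 for Tlr1.

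The response in O4+ minus that in CD11B+ cells at P5 was 1.66 for Cd14, 1.52 for Tlr2, 1.36 for Tlr7, 1.13 for Tlr13, 1.02 for Tlr6, 0.81 for Tlr4, 0.64 for Tlr1 and 0.44 for Myd88. At P10 it was 0.9 for Cd14, 0.61 for Tlr2 and 0.41 for Tlr1.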

How the results depend on the processing

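Calls were compared for 120 values (10 genes in 8 comparisons and 4 interactions). Under 75th percentile scaling 116 kept their call, as did 116 with normexp and 108 with the deposited table. With slide as a block 112 did so and with scan day 118. Values called in neither setting count as kept, although some of them changed sign. Such sign changes numbered 2 under 75th percentile scaling, 3 with normexp, 6 with the deposited table, 8 with slide and 2 with scan day. No source ties the replicate numbers to animals, although both cell types came from the same animals. Same-numbered deviations correlated at -0.08 to 0.48, and in O4+ against CD11B+ cells the own number was the best match for 4 (P5) and 5 (P10) of 6. The fits were made without pairing, and with the replicate block 120 of 120 kept their call, with 9, 2, 5 and 0 genes higher with IL1B in the 4 comparisons. In CD11B+ cells at P10 the count called higher was 1 under 75th percentile scaling, 1 with the deposited table and 2 with no fold threshold. With age in CD11B+ cells, the count called lower was 2 in these 3 settings and that called higher 3 with no fold threshold. The interaction with age in O4+ cells passed for 5 genes with the deposited table and 5 with the slide block, that in CD11B+ cells for 2 with the deposited table, and that between cell types at P10 for 1. Leaving out 1 array gave 8 to 9 genes higher in O4+ cells at P5, 2 to 2 at P10, 5 to 5 in CD11B+ cells at P5 and 0 to 1 at P10. With age it gave 7 to 8 genes lower in O4+ cells and 1 to 1 higher and 1 to 2 lower in CD11B+ cells, and 10 to 10 lower between cell types. Interactions ranged over 7 to 8 genes (O4+, age), 4 to 6 (CD11B+, age), 8 to 8 (cell types, P5) and 3 to 4 (P10). Subtracting the microglia mean left 4 genes higher and 1 lower in O4+ cells at P5, 1 higher at P10, and 1 higher and 2 lower with age. It turned Tlr9 (-0.86), Tlr3 (-0.32), Tlr1 (-0.13) and Tlr4 (-0.1) at P5 and Tlr9 (0.95), Tlr1 (0.34), Tlr7 (0.24) and Tlr13 (0.08) with age. Every probe is shifted by the change of the mean, so genes that changed less than the mean turn by construction. The mean without Itgam and Siglech, chosen after seeing the data, left 3 higher and 1 lower at P5, 1 higher and 1 lower at P10, and 3 higher and 2 lower with age. It turned Tlr9 (-1.03), Tlr3 (-0.49), Tlr1 (-0.3), Tlr4 (-0.27) and Myd88 (-0.16) at P5 and Tlr9 (1.17), Myd88 (0.74), Tlr1 (0.56), Tlr7 (0.46), Tlr13 (0.3) and Tlr4 (0.15) with age. Under 75th percentile scaling the microglia mean changed by 0.28 in O4+ cells at P10, 0.11 in CD11B+ cells at P5 and -0.01 at P10, and oligodendrocyte markers by -0.22 in O4+ cells at P10. The causes were not tested. Signal near background limits Tlr3 in O4+ cells.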

Other observations

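The mean of the neuron markers changed by 0.13 and -0.01 in O4+ cells at P5 and P10 and by 0 and 0.11 in CD11B+ cells, and none of these passed the exact permutation test. Astrocyte markers changed by 0.1 in O4+ cells at P5 and by -0.27 and 0.42 in CD11B+ cells at P5 and P10. Border-associated macrophage markers changed by 0.51 and -0.16 in O4+ cells and by -0.07 in CD11B+ cells at P5, none of which passed. Oligodendrocyte markers in CD11B+ cells fell by 0.34 at P5 (exact permutation, adjusted p 0.011) and fell by 0.58 at P10 (exact permutation, adjusted p 0.00672), and at P10 endothelial markers fell by 0.25 (exact permutation, adjusted p 0.0151).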
